A study of Homo sapiens with 3 samples.

Results

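Full-length LATS2 was set against a fragment of the same protein that lacks the kinase domain, with 1 expression array for each. The report covers the direct difference between the arrays titled SW620-LATS2 and SW620-LATS2N, which are 2 of the 3 arrays of the series. A gene entered when its signal exceeded a floor of 50.5 on either array, the floor being the median signal of all probe sets that are not manufacturer's controls over the 3 arrays. This held for 13177 of the 19775 genes with a probe set of their own, and 7426 of these had a brighter signal of 500 or more, where the arrays read with less noise.

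The cells are a colorectal cancer line that carries a virus-delivered construct in stable form. One culture received full-length LATS2 and another LATS2N, residues 1 to 625 of the protein, so that both share the N-terminal part and only the former has the C-terminal kinase domain. The third received an empty vector, and its signals are given below as the background level. Every sample label names the line as SW620, whereas the series' design text names SW480, and the files used here do not settle which it was. All cells grew in serum-containing medium. Whether a stable line was a single clone or a pool is not given, nor are separate cultures, so a difference between the arrays is a difference between these cultures and their hybridisations. With 1 array per construct there is no replicate spread, no test and no p-value for any value given here, and genes are described by the size of the difference.

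LATS2 is a protein kinase that acts in the Hippo pathway. In that pathway the MST kinases and the scaffold SAV1 activate LATS1 and LATS2, which act with MOB1 to phosphorylate the coactivators YAP and TAZ, and phosphorylated YAP and TAZ are held out of the nucleus, away from the TEAD factors that recruit them to target genes. A fragment without the kinase domain can still bind partners through the N-terminal part but cannot phosphorylate them.

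The LATS2 transcript itself read alike on the arrays. Its brightest probe set gave 377 on the LATS2, 409 on the LATS2N and 385 on the empty-vector array, and another gave 219.2, 219.1 and 205.7 in the same order. The other two probe sets for LATS2 stayed below the floor on every array, with 35.4 as their brightest reading. Neither measurable probe set differed by 1.3-fold between any of the 3 arrays, and the log2 ratios of LATS2 over LATS2N were -0.12 and 0.00. Whether these probe sets lie within the sequence carried by the viruses is not given in the sources used here, so they may be blind to the introduced transcripts and do not check the labels. "LATS2 array" and "LATS2N array" below mean the arrays so labelled, and every direction rests on those labels.

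Both arrays carried the markers of an epithelial line. Of 13 colorectal epithelial markers with a probe set, 11 were above the floor on the LATS2 array, 12 on the LATS2N array and 10 on the empty-vector array, and their signals summed to 131093, 132518 and 124955. The keratin genes KRT8, KRT18 and KRT19 and EPCAM were bright, whereas CEACAM5, CDX1 and LGALS4 stayed near or below the floor. Of 10 fibroblast and smooth muscle markers, 4 and 5 were above the floor on the LATS2 and LATS2N arrays, with sums of 2742 and 2627, most of it LUM, while COL1A2, COL3A1, PDGFRA and PDGFRB were below it. Endothelial markers (1 and 1 of 6 above the floor, sums 132.4 and 150.6), blood and immune markers (4 and 3 of 6, 398.1 and 562.1) and neural markers (1 and 1 of 5, 186.9 and 166.5) were near the floor. The 3'-to-5' signal ratio of GAPDH was 0.939 and 0.958 on the LATS2 and LATS2N arrays and that of ACTB 1.74 and 1.85. The 18 probe sets for hybridisation spike-ins read slightly lower on the LATS2 array, with a median log2 ratio of -0.13 between -0.36 and 0.01; its part in the results was not tested. In such bulk RNA, fewer cells expressing a gene and less RNA per cell cannot be told apart.

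Most genes differed little between the constructs, and at signals of 500 or more the 2-fold differences lay mostly on the side where the LATS2 array was lower. The median log2 ratio, LATS2 over LATS2N, was 0.01 over all 13177 genes and 0.02 over the 7426 bright ones, of which 89.7% lay within 1.3-fold. On the LATS2 array 47.7% of all genes were lower, the background for the list counts below. By 2-fold or more, 78 genes were higher with LATS2 (0.592% of all) and 132 were lower (1.00%). Among bright genes these were 4 (0.0539%) and 28 (0.377%). The noise within these arrays sets the scale for such values: pairs of probe sets of the same gene gave a robust SD of the log2 ratio of 0.383 at dimmer signals from 50 to 100, of 0.223 from 200 to 500, of 0.143 from 500 to 2000, and of 0.0940 beyond that. It covers noise between probe sets and not differences between cultures.

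Faint genes made up most of the 2-fold differences. The 2190 genes with a brighter signal under 100 could not reach 2-fold, because the dimmer signal is raised to the floor. They still count in the shares of all genes given above. From 100 to 200 on the brighter array 8.84% of genes differed by 2-fold, from 500 to 1000 0.838%, and above 5000 0.331%, where 5 genes were lower on the LATS2 array and 0 higher. A milder limit, at least 1.5-fold with a brighter signal of 500 or more and all measurable probe sets of the gene in one direction, gave 85 genes higher (1.14% of bright genes) and 111 lower (1.49%) on the LATS2 array. That split depends on the scaling: 65 were higher and 131 lower after a brightness-dependent loess, and 66 and 127 after quantile normalisation.

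**Figure D1:**
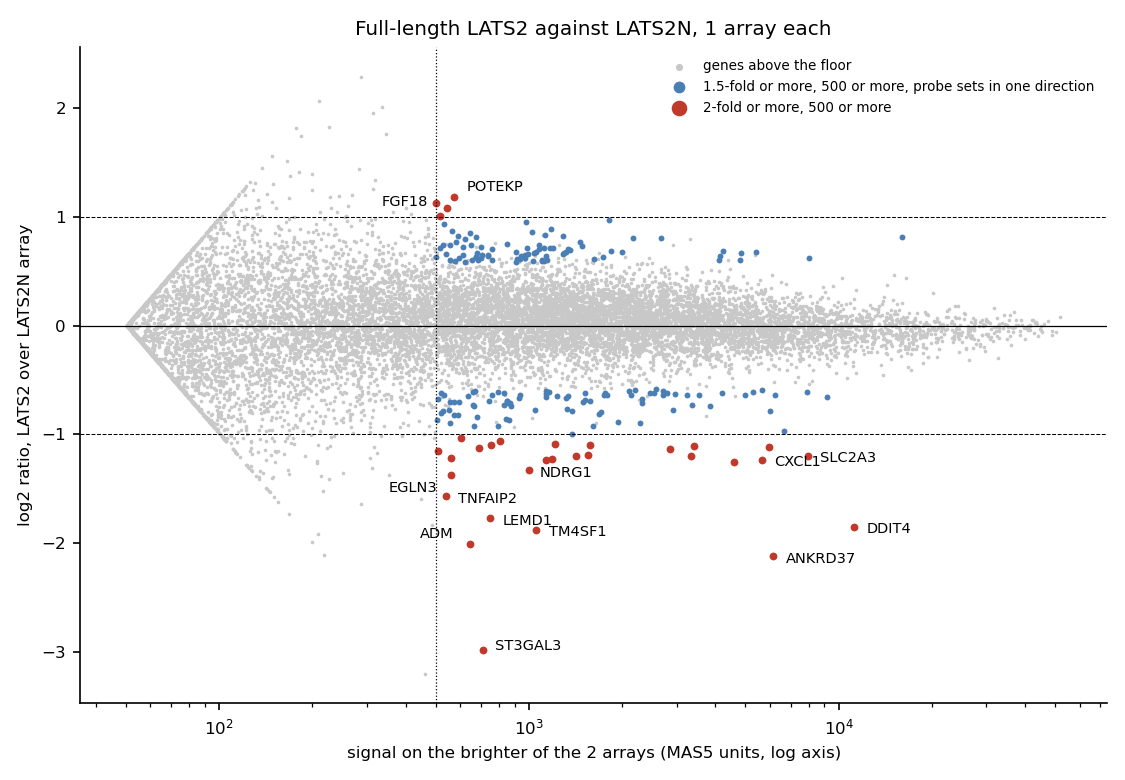
Each point is a gene above the floor, with the signal on the brighter of the LATS2 and LATS2N arrays (MAS5 units, log axis) against the log2 ratio of LATS2 over LATS2N; dashed lines mark 2-fold and the dotted line a signal of 500. The floor keeps genes under a signal of 100 within 2-fold, and at brighter signals the cloud narrows. Beyond 2-fold at 500 or more lie 28 genes below the cloud and 4 above it.

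Of the 28 bright lower genes, 8 belong to the hypoxia, glucose or mTORC1 lists, 6 to the chemokine or NF-kB lists, 2 to other lists and 12 to no list. From the mTORC1 list only DDIT4 is among the 8, and that list's median log2 ratio was 0.07. The share of all bright genes in those lists is not given, so the counts do not show a concentration in them. The lists were chosen with earlier results of these data known, so the counts are no independent support. At 18 of the 28 only 1 probe set could be measured. More than 1 could be measured at 10, and at 9 of these 10 all probe sets were lower on the LATS2 array, though not all by 2-fold. The exception is the largest ratio among bright genes: ST3GAL3, a sialyltransferase gene, read 89.99 on LATS2, 709.5 on LATS2N and 682 on empty vector with 1 probe set, while its other 2 measurable probe sets had log2 ratios of 0.05 and -0.29 at signals near the floor. Just inside the 2-fold limit were FGF18 (1.01), NOXO1 (-1.03) and PFKFB3 (-1.06), and just outside it TMCC1 (-0.997), NUDT3 (0.97) and APOBEC3B (-0.97).

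The empty-vector array entered the ratios of LATS2 over LATS2N only through the floor and the choice of probe sets. Its signals read closer to LATS2N than to LATS2 for most of the bright genes 2-fold apart. This was so for 25 of the 28 bright lower genes and for all 4 bright higher ones. The median log2 difference of the 28 from the empty vector was -0.95 with LATS2 and 0.29 with LATS2N, and for 26 of them the empty-vector signal lay between the others. At the 1.5-fold limit the empty vector was closer to LATS2N for 85 of 111 lower and 63 of 85 higher genes, beside 4126 of all 7426 bright genes. The exceptions among the 28 were LEMD1, CXCL1 and CXCL8, for which LATS2N lay farther above the empty vector than LATS2 lay below it.

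**Figure D2:**
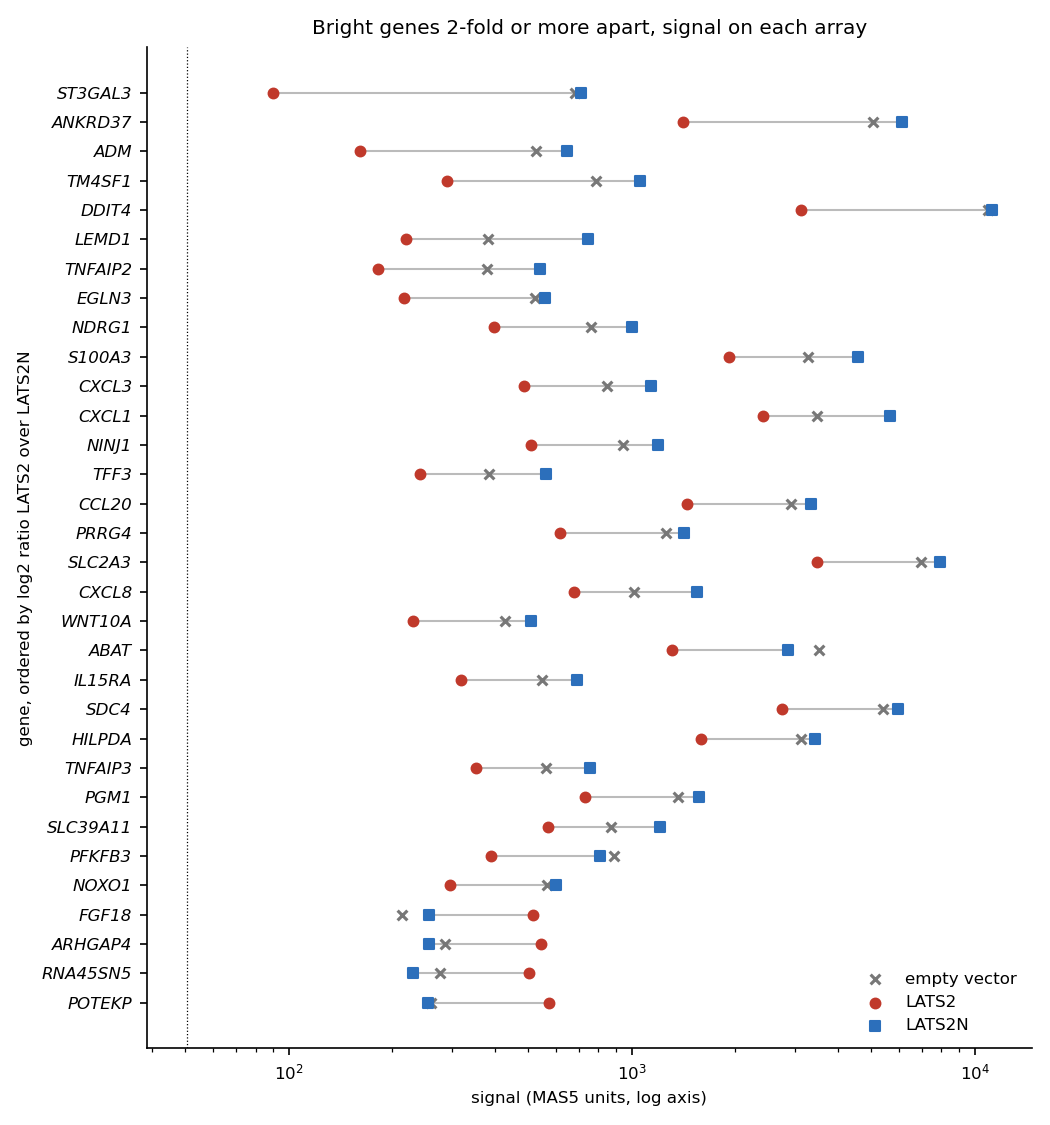
Signal (MAS5 units, log axis) on the empty-vector (crosses), LATS2 (circles) and LATS2N (squares) arrays for the 32 genes that differed at least 2-fold at 500 or more, ordered by the log2 ratio of LATS2 over LATS2N; the dotted line is the floor of 50.5. In the 28 genes at the top the LATS2 circle lies to the left, with the cross closer to the square in 25 of them.

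Genes induced when oxygen is low or when the hypoxia-inducible factor HIF is stable gave the largest differences with a bright signal apart from ST3GAL3. HIF is a pair of subunits, one of which is hydroxylated by the EGLN enzymes and then destroyed through VHL. Of 30 members of this list above the floor 19 were lower and 11 higher on the LATS2 array, with a median log2 ratio of -0.29, and 4 were 2-fold lower and none higher. The median against the empty vector was -0.20 with LATS2 and 0.07 with LATS2N.

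ANKRD37, an ankyrin repeat gene known as a HIF target, read 1414 on LATS2, 6147 on LATS2N and 5059.8 on empty vector, a 4.35-fold difference. ADM, which encodes the vasodilator peptide adrenomedullin, read 161 on LATS2, 647 on LATS2N and 525 on empty vector (4.02-fold). Both were lowest on the LATS2 array, and the other two arrays lay within 1.3-fold of each other. EGLN3, one of the HIF hydroxylases and itself a HIF target, read 216 on LATS2, 560.0 on LATS2N and 523 on empty vector, and its second probe set differed by a log2 ratio of -1.02. NDRG1, a stress- and differentiation-linked gene, read 398 on LATS2, 999 on LATS2N and 759.7 on empty vector (2.51-fold). BHLHE40, a transcriptional repressor, reached the 1.5-fold limit with 2295 on the LATS2, 3841 on the LATS2N and 3418 on the empty-vector array.

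VEGFA, the angiogenic growth factor, read 481 on LATS2, 779 on LATS2N and 1063 on empty vector (log2 ratio -0.70) but had probe sets in both directions, and the LATS2N array was also under the empty vector. The collagen prolyl hydroxylases P4HA1 (-0.56) and P4HA2 (-0.52) and the histone demethylase KDM3A (-0.51) had smaller log2 ratios in the same direction. EGLN3 apart, regulators of the pathway named here differed little. HIF1A, the oxygen-regulated subunit, read 7146 on LATS2, 6869 on LATS2N and 7149 on empty vector, and VHL (0.09) and HIF1AN (0.26) had log2 ratios on the other side of 0. HILPDA, a lipid droplet protein gene known to respond to hypoxia and not in the list, read 1593 on LATS2, 3421 on LATS2N and 3116 on empty vector, with its second probe set at a log2 ratio of -1.02.

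Among genes of glucose use, the large differences lay at a glucose transporter, at the activators of phosphofructokinase and at ALDOC and PGM1. The list of glucose uptake, glycolysis and glycogen genes had 25 of 29 members lower and 4 higher on the LATS2 array, a median log2 ratio of -0.19, and 4 members 2-fold lower with none higher. SLC2A3, the transporter GLUT3, read 3460.3 on LATS2, 7935 on LATS2N and 6955 on empty vector, and its 3 probe sets had log2 ratios of -1.20, -0.95 and -0.74. SLC2A1, the transporter GLUT1, read 10688 on LATS2, 12679 on LATS2N and 11275 on empty vector, a log2 ratio of -0.25.

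PFKFB3, which makes the activator of phosphofructokinase, read 388 on the LATS2, 809 on the LATS2N and 889 on the empty-vector array, and its relative PFKFB4 851 on LATS2, 1608 on LATS2N and 1271 on empty vector. ALDOC, an aldolase, was dim on the LATS2 array and read 137 on LATS2, 488 on LATS2N and 344 on empty vector. PGM1, which links glucose to glycogen, read 733 on LATS2, 1569.5 on LATS2N and 1367 on empty vector. In each of these the LATS2 array was lowest. PDK1, the kinase that shuts pyruvate dehydrogenase, had a log2 ratio of -0.90 and HK2, a hexokinase, -0.64, although neither counted at the 1.5-fold limit because their probe sets did not share a direction. The most abundant glycolytic genes hardly differed: GAPDH had a log2 ratio of -0.01, ENO1 -0.09 and LDHA -0.17. The list's median against the empty vector was -0.08 with LATS2 and 0.12 with LATS2N.

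**Figure D3:**
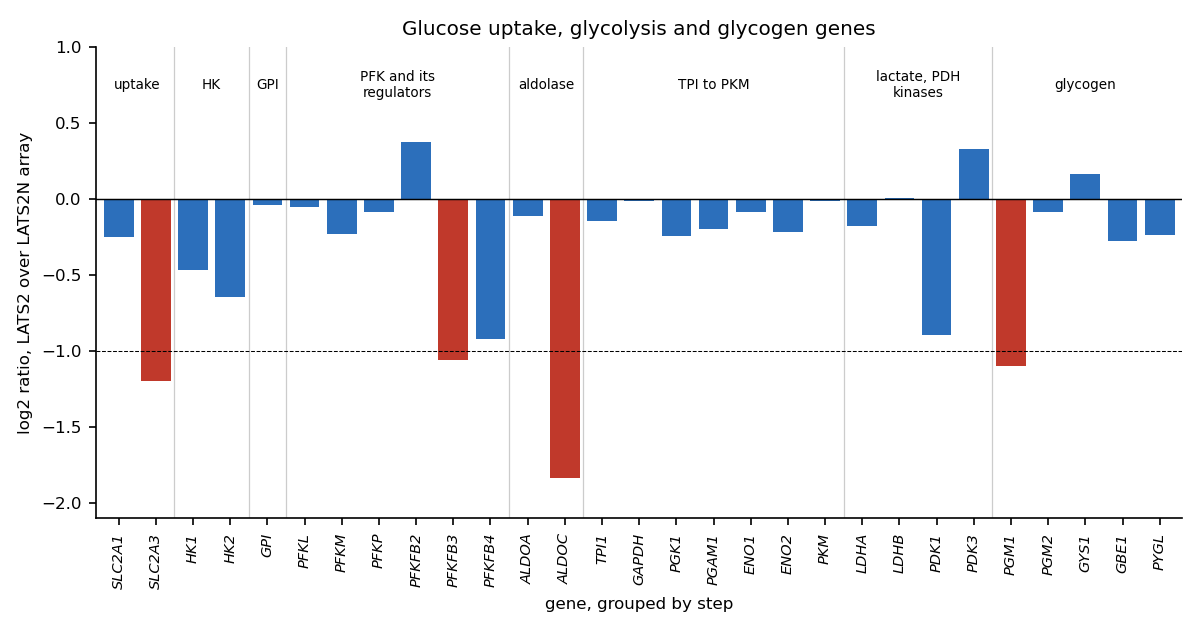
Bars give the log2 ratio of LATS2 over LATS2N for the 29 genes of glucose uptake, glycolysis and glycogen above the floor, grouped by step; the dashed line marks 2-fold lower and bars reaching it are red. SLC2A3, PFKFB3, ALDOC and PGM1 pass it, while GAPDH, ENO1 and LDHA stay near 0.

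DDIT4, which encodes REDD1, an inhibitor of the growth-promoting kinase complex mTORC1, read 3117 on LATS2, 11212 on LATS2N and 10901 on empty vector, so that the LATS2 signal was 3.60-fold under that of LATS2N and the other two arrays agreed closely. It was alone in its list. The list of mTORC1 inhibitors and core subunits had 6 of 18 members lower and 12 higher, with a median log2 ratio of 0.07. DDIT4 was its 2-fold lower member and CASTOR2 its 2-fold higher one. CASTOR2 was dim, at 335 on LATS2, 83.3 on LATS2N and 162 on empty vector. MTOR (-0.14), RHEB (-0.18), TSC1 (0.32) and TSC2 (0.32) had small log2 ratios of either sign.

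The promoters of these genes were searched for the core of the HIF-binding element, ACGTG, because HIF is known to act through it. The search used the RefSeq promoter table of GRCh38.p14, 250 bases before to 50 after each start site, and both strands, so that bases where it reads on both strands (capitals one letter longer than the motif) count as 2 overlapping matches. Of the genes at least 1.5-fold lower in the hypoxia, glucose and mTORC1 lists, at any brightness, 12 had an entry and 6 of these held a match. Shown are stretches around the matches of the genes named above, 5′ to 3′ on the gene's strand, with the matches in capitals: ANKRD37 at chr4:185396649-185396732 (plus strand, 3 matches from -162 to -139 relative to the start), DDIT4 at chr10:72273769-72273833 (plus, -125 to -121), BHLHE40 at chr3:4979233-4979322 (plus, 2 of its 4 matches, -174 to -145), ALDOC at chr17:28576896-28576953 (minus, 1 of its 3 matches, -28 to -24) and HK2 at chr2:74834049-74834113 (plus, 1 of its 2 matches, -48 to -44).
ANKRD37: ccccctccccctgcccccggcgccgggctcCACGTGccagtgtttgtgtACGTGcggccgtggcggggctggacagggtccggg
DDIT4: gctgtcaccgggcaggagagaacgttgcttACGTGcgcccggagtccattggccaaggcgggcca
BHLHE40: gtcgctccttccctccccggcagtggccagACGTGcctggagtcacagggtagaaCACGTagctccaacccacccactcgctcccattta
ALDOC: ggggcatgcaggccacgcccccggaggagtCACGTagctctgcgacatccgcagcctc
HK2: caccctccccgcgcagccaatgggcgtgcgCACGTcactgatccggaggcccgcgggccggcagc
Those 5 letters are common. They occurred in 26.4% of the 10680 promoters of genes above the floor and in 29.0% of the 6288 of bright genes. Beside these, they were in 24.7% of 93 promoters of bright 1.5-fold lower genes and in 33.3% of 72 of bright 1.5-fold higher genes. In the hypoxia list 12 of 24 promoters held them. ADM, EGLN3, PFKFB3, PGM1, PFKFB4 and PDK1 had no match, which says only that these letters are not in that window.

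Chemokine genes were lower on the LATS2 array in most members. Chemokines are secreted attractants of leukocytes, and several in colon epithelium are known targets of the factor NF-kB. Of 14 members of the chemokine list above the floor 12 were lower and 2 higher, with a median log2 ratio of -0.66, 6 at 2-fold lower and none 2-fold higher. That median rests on the floor, being -1.19 with no floor or with one of 359.5. Of the 12 lower members, CCL2 and CXCL5 were below the floor on LATS2 and just above it on LATS2N (59.9 and 50.7). Their ratios are bounds, and CXCL16 had a log2 ratio of -0.06. All 5 bright members were lower, with a median of -1.20. The list's median against the empty vector was -0.54 with LATS2 and 0.22 with LATS2N.

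CXCL1, a neutrophil attractant, read 2411 on the LATS2, 5658 on the LATS2N and 3458 on the empty-vector array. Its close relative CXCL3 read 484 on LATS2, 1139 on LATS2N and 847 on empty vector and CXCL8, interleukin-8, 680.0 on LATS2, 1547 on LATS2N and 1014 on empty vector. The second CXCL8 probe set had a log2 ratio of -0.59, and the median over both, -0.89, is short of 2-fold. For these, LATS2 lay below the empty vector and LATS2N above it. CCL20, which attracts cells bearing CCR6, read 1446 on LATS2, 3328 on LATS2N and 2915 on empty vector, with LATS2N close to the empty vector. CXCL6, another neutrophil attractant, had a log2 ratio of -0.62 and CXCL2, which was dim, -0.69. The receptor gene CXCR4 (92.3 on LATS2, 287 on LATS2N and 205 on empty vector) and RARRES2, the attractant chemerin (148 on LATS2, 448 on LATS2N and 445 on empty vector), were dim with larger ratios.

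The NF-kB list had a median closer to 0 than the chemokine list. Of its 23 members above the floor 18 were lower and 5 higher, with a median log2 ratio of -0.27 and 2 members 2-fold lower. TNFAIP2 read 182 on the LATS2, 540.0 on the LATS2N and 379 on the empty-vector array; its second probe set was near the floor. TNFAIP3, the feedback inhibitor A20, read 353 on LATS2, 756 on LATS2N and 561 on empty vector, and its second probe set had a log2 ratio of -0.65. Both are known NF-kB targets that respond to tumour necrosis factor.

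Log2 ratios were also negative for the inhibitor genes NFKBIE (-0.80, dim) and NFKBIA (-0.40) and for the kinase gene CHUK (-0.58, just short of 1.5-fold). The subunit genes themselves were split: RELB, at 304 on LATS2, 449.6 on LATS2N and 514 on empty vector, was lower, NFKB1 had a log2 ratio of -0.11 and RELA, at 1625 on LATS2, 1364 on LATS2N and 1596 on empty vector, was on the other side of 0. IL15RA, a cytokine receptor gene outside the lists, read 318 on LATS2, 692 on LATS2N and 546 on empty vector. Interleukin-1 and its signalling genes were 8 of 13 lower, with a median of -0.08 and none 2-fold apart.

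**Figure D4:**
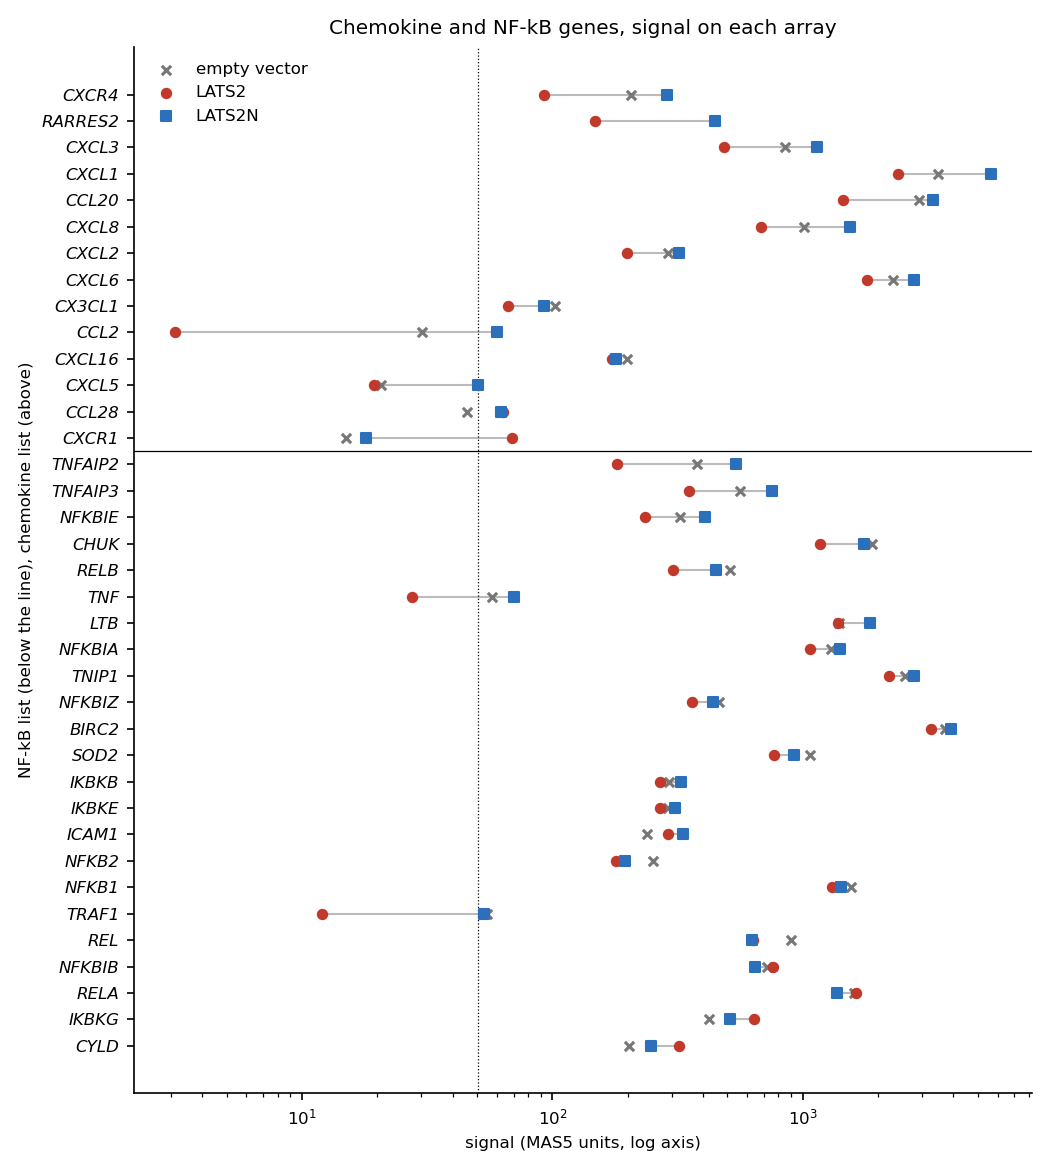
Signal (MAS5 units, log axis) on the empty-vector (crosses), LATS2 (circles) and LATS2N (squares) arrays for the 14 chemokine-list genes (above the horizontal line) and the 23 NF-kB-list genes (below it) above the floor, which is the dotted line. The LATS2 circle lies left of the square in 12 of the 14 and in 18 of the 23.

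The kappa-B element GGAATTTCC, a sequence that NF-kB is known to bind, was searched in the same promoters on both strands. Genes at least 1.5-fold lower in the chemokine and NF-kB lists had an entry for 10, and 5 of these held the element, all of them CXC chemokine genes of one cluster on chromosome 4. They are shown with 30 bases on either side to make the common placement visible, the element in capitals: CXCL1 at chr4:73869285-73869353 (plus strand, -78 to -70), CXCL2 at chr4:74099234-74099302 (minus, -77 to -69), CXCL3 at chr4:74038729-74038797 (minus, -78 to -70), CXCL6 at chr4:73836559-73836627 (plus, -89 to -81) and CXCL8 at chr4:73740448-73740516 (plus, -91 to -83).
CXCL1: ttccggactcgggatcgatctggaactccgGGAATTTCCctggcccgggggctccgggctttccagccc
CXCL2: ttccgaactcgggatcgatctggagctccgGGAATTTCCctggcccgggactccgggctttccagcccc
CXCL3: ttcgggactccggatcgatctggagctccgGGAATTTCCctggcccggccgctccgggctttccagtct
CXCL6: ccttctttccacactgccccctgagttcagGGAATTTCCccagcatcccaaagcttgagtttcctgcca
CXCL8: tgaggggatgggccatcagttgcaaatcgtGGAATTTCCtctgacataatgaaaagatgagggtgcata
CXCL1, CXCL2 and CXCL3 are paralogs whose promoters are alike over the whole stretch, so they are not separate instances, and probes for such relatives can share signal. The element occurred in 49 of 10680 promoters (0.459%), in 6 of 93 bright 1.5-fold lower genes (6.45%), namely CXCL1, CXCL3, CXCL6, CXCL8, RAP2C and WNT10A, and in 0 of 72 bright 1.5-fold higher genes. Most of these 6 are CXC genes of that cluster, so the difference in shares is no independent support. In the chemokine list 6 of 11 promoters held the element, and in the NF-kB list 5 of 20. None of the NF-kB-list promoters holding it belonged to a gene at least 1.5-fold lower. CCL20, TNFAIP2 and TNFAIP3 had no match, which says only that these exact letters are not in that window.

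The interferon list had 13 of 18 members lower and a median log2 ratio of -0.19, with ISG20 (322 on LATS2, 553 on LATS2N and 359 on empty vector) the one past the 1.5-fold limit. In the MHC class I list 13 of 16 were lower with a median of -0.08, and PSMB8, an immunoproteasome subunit that was dim at 136 on the LATS2, 353 on the LATS2N and 166 on the empty-vector array, was 2-fold lower. HLA-B (5619 on LATS2, 5631 on LATS2N and 5158 on empty vector) and B2M (log2 ratio -0.08) were bright and nearly equal.

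Sterol genes were lower on the LATS2 array, and here the LATS2N array was below the empty vector too. Cholesterol synthesis is governed by SREBP factors, which INSIG1 holds back in the endoplasmic reticulum. Of 20 members 15 were lower, with a median log2 ratio of -0.29, and against the empty vector the median was -0.50 with LATS2 and -0.24 with LATS2N. INSIG1 read 308 on LATS2, 529 on LATS2N and 798 on empty vector, IDI1, the isopentenyl isomerase, 1740.0 on LATS2, 2705 on LATS2N and 3491 on empty vector and STARD4, a sterol carrier, 786 on LATS2, 1228 on LATS2N and 1462 on empty vector.

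In these 3 the order from empty vector to LATS2N to LATS2 was the same. MVD, a mevalonate pathway enzyme, was the one member 2-fold lower, at 72.2 on LATS2, 148 on LATS2N and 163 on empty vector, and dim. SQLE (0.01) had a log2 ratio near 0 and PMVK (0.28) one on the other side. The sterol element TCACNCCAC, searched on both strands, was in 1 of 18 promoters of the list and 1.04% of all. The fatty acid list had 11 of 14 lower and a median of -0.16, with SCD, the stearoyl desaturase, at 7616 on the LATS2, 10603 on the LATS2N and 12907 on the empty-vector array and ACLY at a log2 ratio of -0.06.

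Components of the Hippo pathway differed little. Of 28 above the floor 11 were lower and 17 higher on the LATS2 array, with a median log2 ratio of 0.13 (0.05 with the median over probe sets) and none 2-fold apart. The upstream kinase genes STK3 (-0.11) and STK4 (0.39), encoding MST2 and MST1, had log2 ratios of opposite sign, SAV1 had -0.11 and MOB1A -0.10. LATS1, the paralog, read 421 on LATS2, 328 on LATS2N and 405 on empty vector. YAP1, the coactivator, read 5591 on LATS2, 5701 on LATS2N and 6068 on empty vector, WWTR1, which encodes TAZ, 304 on LATS2, 329 on LATS2N and 359.8 on empty vector, and TEAD1 6188 on LATS2, 5842 on LATS2N and 6097 on empty vector.

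Transcript levels do not show phosphorylation or where YAP and TAZ are. The YAP and TAZ target list had 8 of 15 members lower and 7 higher, a median log2 ratio of -0.02 and none 2-fold apart. CCN1 (136 on LATS2, 97.6 on LATS2N and 66.8 on empty vector) and CCN2 (66.4 on the LATS2, 38.8 on the LATS2N and 28.6 on the empty-vector array), matricellular protein genes commonly used as readouts, were dim and highest on the LATS2 array. CCN2 was below the floor on the LATS2N and empty-vector arrays, so its log2 ratio of 0.40 is a bound and those arrays cannot be ordered. AXL, a receptor kinase gene (-0.27), F3, tissue factor (-0.54), and BIRC5, survivin (-0.28), had negative log2 ratios, BIRC5 with 0.028 once probe sets that may cross-hybridise were left out, and MYOF, a bright target, read 3194 on LATS2, 3085 on LATS2N and 3252 on empty vector.

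One of the 4 bright genes higher on the LATS2 array is a known Wnt target. FGF18, a growth factor and known beta-catenin target, read 515 on LATS2, 256 on LATS2N and 214 on empty vector, and its 4 measurable probe sets had log2 ratios from 0.42 to 1.01. DKK4, a secreted Wnt antagonist, read 15957 on LATS2, 9087 on LATS2N and 7523 on empty vector (log2 ratio 0.81), and TNFRSF19, a receptor, read 343 on LATS2, 557 on LATS2N and 711 on empty vector (-0.70). Their list had 10 of 22 lower and 12 higher with a median of 0.01. MYC read 28341 on LATS2, 28423 on LATS2N and 24338 on empty vector, and AXIN2, the feedback inhibitor used as a Wnt readout, 5577 on the LATS2, 5315 on the LATS2N and 5369 on the empty-vector array.

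MYC and AXIN2 were thus within 1.3-fold on the 3 arrays. Pathway components were mostly higher on the LATS2 array, 21 of 23 with a median log2 ratio of 0.12 and none 2-fold apart. Beta-catenin itself, CTNNB1, read 15452 on LATS2, 17384 on LATS2N and 14593 on empty vector, on the other side, but had probe sets in both directions. WNT10A, a Wnt ligand gene outside the lists, was among the bright lower genes at 229.9 on LATS2, 510.0 on LATS2N and 428 on empty vector. The other three bright higher genes were ARHGAP4 (543 on LATS2, 257 on LATS2N and 286 on empty vector), POTEKP, an actin-related pseudogene whose probes may catch its relatives (574 on LATS2, 254 on LATS2N and 261 on empty vector), and RNA45SN5, the ribosomal RNA precursor (503 on LATS2, 230.1 on LATS2N and 275 on empty vector). Control probe sets for 18S ribosomal RNA, cut from that precursor, were lower on the LATS2 array, 1.40-fold at the median of 3.

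At the 1.5-fold limit the growth-signalling lists held a few higher members. ETV1, a PEA3-group transcription factor downstream of ERK, read 1181 on the LATS2, 639.6 on the LATS2N and 471 on the empty-vector array, whereas FOSL1, a Fos relative, read 1395 on LATS2, 2110.1 on LATS2N and 1549.6 on empty vector. Their list of PEA3 factors and ERK feedback genes had 8 of 18 lower and a median log2 ratio of 0.09, with the feedback phosphatase DUSP6 at 0.49 and PHLDA1, a bright member, at -0.09. ID2, an inhibitor of basic helix-loop-helix factors induced by BMP, read 1287 on LATS2, 726 on LATS2N and 714 on empty vector in a TGF-beta and BMP list with 5 of 24 lower and a median of 0.09.

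EGF receptor family genes and ligands were 2 of 9 lower, with a median log2 ratio of 0.08. ERBB3 was at 0.50 with probe sets in both directions, and EREG at -0.48. Immediate early genes were evenly split, 12 of 22 lower and a median near 0, with NR4A1, dim at 51.4 on LATS2, 134 on LATS2N and 46.9 on empty vector, 2-fold lower and ZFP36, an mRNA-decay factor, at 488 on LATS2, 761 on LATS2N and 554 on empty vector. EGR1 had a log2 ratio of -0.29 and JUND 0.26. The MYC, MAX and MXD network had 5 of 11 lower and a median of 0.12, with MAX at 0.24; without cross-hybridising probe sets these were -0.057 and -0.24.

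TM4SF1, a tetraspan membrane protein gene linked to cell motility, read 289 on LATS2, 1058 on LATS2N and 788 on empty vector (3.67-fold), and its 3 probe sets had log2 ratios of -1.87, -1.57 and -1.47. PLAU, the protease urokinase, was dim at 55.4 on the LATS2, 208 on the LATS2N and 105 on the empty-vector array, and TIMP1, an inhibitor of metalloproteinases, read 1124 on LATS2, 1747 on LATS2N and 1604 on empty vector. The list of urokinase, matrix and integrin genes had 16 of 26 lower and a median log2 ratio of -0.14.

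Of the bright lower genes in no list, described one by one, SDC4, a heparan sulfate proteoglycan of focal adhesions, read 2749 on LATS2, 5961 on LATS2N and 5385 on empty vector, and NINJ1, an adhesion and membrane-rupture protein gene, 509.7 on LATS2, 1189 on LATS2N and 944 on empty vector. TFF3, a goblet-cell trefoil peptide, read 241 on LATS2, 561 on LATS2N and 384 on empty vector, and S100A3, a calcium-binding protein gene, 1925 on LATS2, 4581 on LATS2N and 3257 on empty vector. In these 4 the LATS2 array was lowest and the LATS2N array highest. Epithelial junction and transition genes were 12 of 26 lower with a median log2 ratio of 0.01. In that list LEMD1, better known as a cancer-testis antigen gene, read 219 on the LATS2, 748 on the LATS2N and 381 on the empty-vector array, so that LATS2N was well above the empty vector, CLDN7, a tight-junction claudin, read 5171 on LATS2, 7896 on LATS2N and 7079 on empty vector, and SNAI2, the transcriptional repressor Slug, was dim and 2-fold higher at 261 on LATS2, 122 on LATS2N and 154 on empty vector.

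CDH1, E-cadherin, read 2792 on LATS2, 3567 on LATS2N and 4421 on empty vector and DSP, desmoplakin, had a log2 ratio of 0.16. The actin and SRF-linked list had 13 of 25 lower and a median of -0.02. Its member TAGLN was 2-fold lower at 75.8 on LATS2, 217 on LATS2N and 254 on empty vector, and CNN3, a calponin, read 604 on LATS2, 938 on LATS2N and 903 on empty vector. Bright actin-binding genes such as ACTN4 (0.19) had small log2 ratios.

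Metabolic and transport genes without a list among the 28 included ABAT, the GABA transaminase, at 1307 on the LATS2, 2861 on the LATS2N and 3521 on the empty-vector array, with log2 ratios of -1.13, -0.97 and -0.56 over its 3 probe sets. SLC39A11, a zinc transporter gene, read 568 on LATS2, 1210.2 on LATS2N and 868 on empty vector, PRRG4 619 on LATS2, 1422 on LATS2N and 1262 on empty vector and NOXO1, an organiser of NADPH oxidase 1, 295 on LATS2, 603 on LATS2N and 567 on empty vector. For PRRG4 the second probe set had a log2 ratio of -0.16, so its probe sets share a direction but not a size. In the list of metallothioneins and zinc transporters 13 of 20 were lower with a median log2 ratio of -0.07.

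The bright metallothionein genes, which encode metal-buffering proteins, all read lower on the LATS2 array: MT1F read 984 on LATS2, 1516 on LATS2N and 1104 on empty vector, MT2A 5127 on LATS2, 6806 on LATS2N and 6017 on empty vector, and MT1H, MT1E, MT1X and MT1G had log2 ratios of -0.43, -0.40, -0.39 and -0.39. Probes for these paralogs can share signal. MT3, dim at 16.9 on the LATS2, 168 on the LATS2N and 93.3 on the empty-vector array, was 2-fold lower, and the transporter SLC30A3, dim at 345 on LATS2, 102 on LATS2N and 300.2 on empty vector, 2-fold higher. SLC39A14, a bright importer, had a log2 ratio of 0.05.

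G1/S and replication genes were 15 of 33 lower with a median log2 ratio of 0.02, and RBL1, the pocket protein p107, dim at 228 on LATS2, 100.4 on LATS2N and 161 on empty vector, was 2-fold higher. Mitosis genes were 12 of 30 lower with a median of 0.03, and the phosphatase CDC25C read 905 on LATS2, 603 on LATS2N and 560.0 on empty vector, while CDK1 had a log2 ratio of -0.22. Histone genes were 7 of 16 lower with a median of 0.05.

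Genes of p53 and its targets were 18 of 24 lower with a median log2 ratio of -0.17. PHLDA3, an AKT inhibitor, was dim at 85.0 on LATS2, 226 on LATS2N and 129 on empty vector and the one member 2-fold lower. BCL2 family genes were 6 of 13 lower with a median of 0.04. MCL1 was at -0.16 (0.23 as the median of its probe sets, 0.32 without cross-hybridising ones). BCL2L1 was at 0.56 with probe sets in both directions. Unfolded protein and amino acid stress genes were 20 of 29 lower with a median of -0.07, none 2-fold apart, and PPP1R15A, a phosphatase subunit that restores translation, read 542 on LATS2, 322 on LATS2N and 389.7 on empty vector with probe sets in both directions.

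Heat shock genes were 10 of 21 lower with a median log2 ratio of 0.01, and HSPA6, a stress-only member, dim at 314 on the LATS2, 81.4 on the LATS2N and 104 on the empty-vector array, was 2-fold higher. NRF2 targets were 8 of 21 lower (median 0.06, NQO1 at 0.50), and ribosome biogenesis genes 4 of 18 (median 0.05), with RRP9 past the 1.5-fold limit at 1355 on LATS2, 836 on LATS2N and 1134 on empty vector. Cytosolic ribosomal protein genes, the brightest list, were 11 of 22 lower with a median of 0.00. Respiratory chain genes were 23 of 30 lower by a small amount (median -0.07), RNA-binding protein genes 13 of 24 (median -0.01), and neither had a member past the limit. Of 6 cancer-testis antigen genes above the floor 2 were lower, with a median of 0.24 (-0.17 with a higher floor of 359.5), MAGEC2 (dim at 126 on LATS2, 311 on LATS2N and 271 on empty vector) 2-fold lower and MAGEA12 (dim at 231 on LATS2, 109 on LATS2N and 74.1 on empty vector) 2-fold higher.

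**Figure D5:**
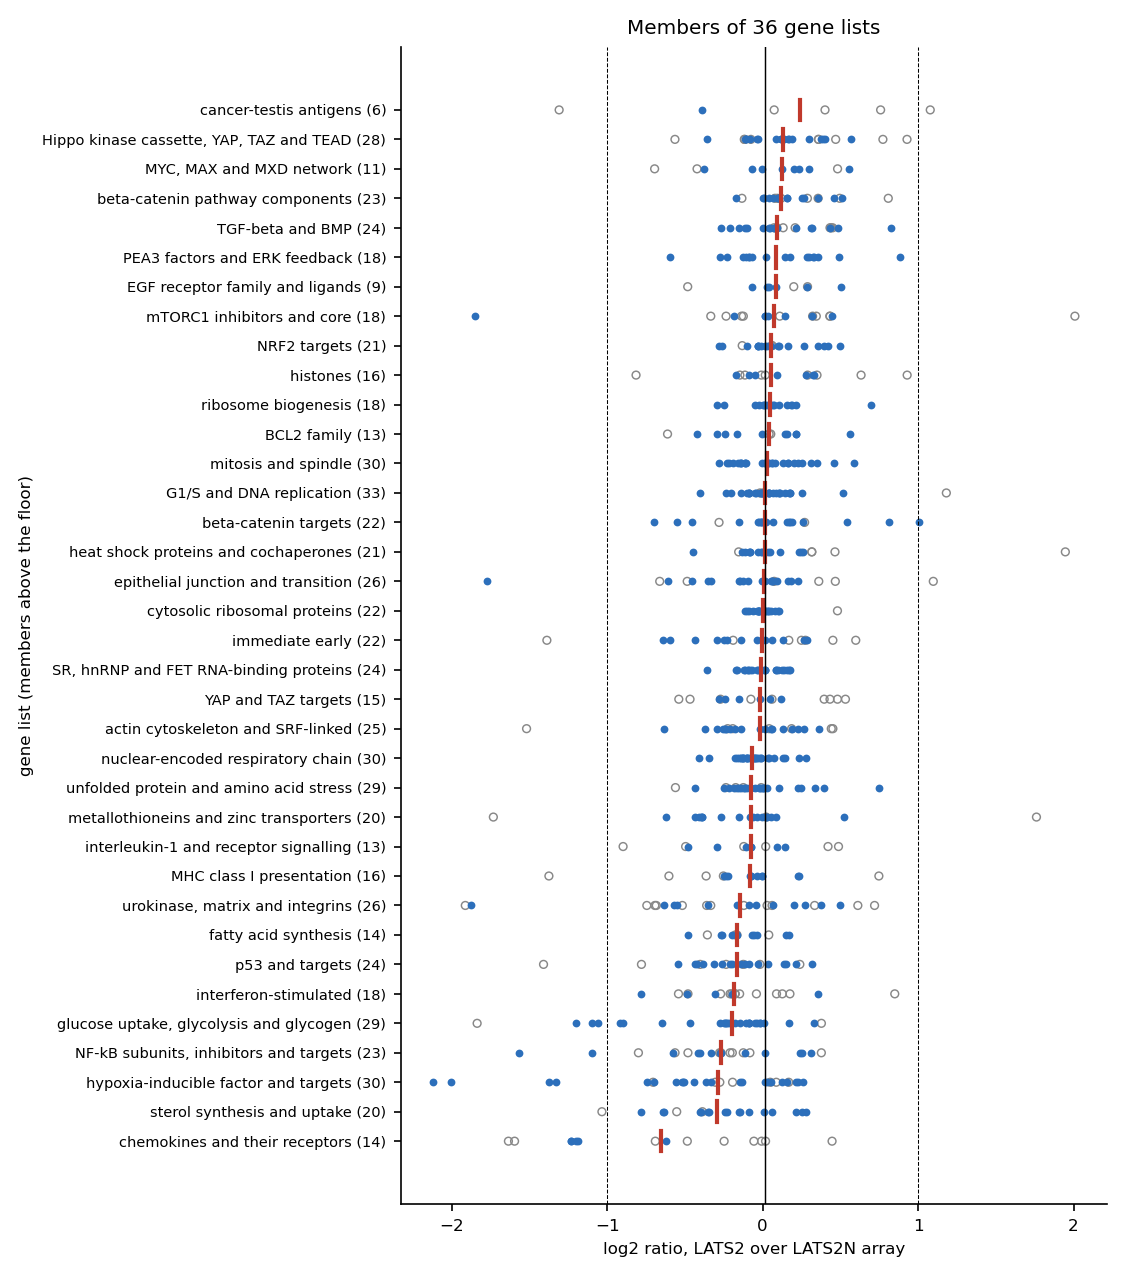
Each point is a member above the floor of 1 of 36 gene lists, by its log2 ratio of LATS2 over LATS2N (filled at a brighter signal of 500 or more, open below); red bars are list medians, the solid line the median of all genes at 0.01, and dashed lines 2-fold. Chemokine (-0.66), sterol (-0.29) and hypoxia (-0.29) medians are lowest, and the Hippo component median is 0.13.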

How the data were processed

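The values are the probe set intensity values, on a linear scale, that the authors deposited for 3 arrays, from MAS5 according to the submitters' processing notes; version, settings and scaling target are not given in the sources used here. From the values, the arrays' means trimmed by 2% at either end were 500.1. Of 54675 probe sets 62 are controls, 41091 have 1 gene symbol, 1801 several and 11721 none in the platform table; 41037 matched the RefSeq gene table of GRCh38.p14. Only probe sets with 1 symbol were used, and each gene is represented by the one whose mean log2 signal across arrays was highest.

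Signals under the floor were raised to it before ratios were formed, so a ratio against a signal at the floor is a bound. Calls are by size alone, and no test was run. The steps were checked on simulated signals without noise, with bright genes shifted by known factors. That checks the arithmetic and not how noise affects the calls. Named were LATS2, all bright 2-fold genes, the 2 brightest members of each list, list members 2-fold apart and up to 4 per direction that were bright and 1.5-fold apart; other list members were named for their role after their values were seen. The members, the 36 gene lists and 5 marker lists were chosen with earlier results of these data known, so their directions are no independent support. Alternatives were 2 other floors, no floor, a pseudocount, other probe set rules, quantile normalisation, a loess and other brightness limits. Python 3.11.15, numpy 2.4.6, pandas 2.3.3 and statsmodels 0.14.6 were used.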

Additional observations from a re-analysis of the deposited data

How the results depend on the processing

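With 1 array per construct, none of the values has a replicate check. The median of all genes stayed between 0.01 and 0.02 under every alternative run. Of the recomputed counts 43 stayed within 1.5 times and 19 did not; of the list medians 314 moved by less than 0.143, 9 by more and 1 reversed; of single genes 1046, 91 and 6. With a floor at the 25th percentile (14.6) 744 genes were 2-fold higher and 979 lower, the 28 bright lower genes were kept, and the interleukin-1 median was 0.093. With a floor at the 75th (359.5) 0 were higher, 0 of them bright, 20 lower, the chemokine median was -1.19 and the cancer-testis median reversed to -0.17. With no floor 318 were higher and 458 lower, with a chemokine median of -1.19. A pseudocount equal to the floor gave 49 higher, 1 of them bright, and 85 lower, with a chemokine median of -0.83. The median over probe sets gave -0.29 for urokinase and matrix genes and reversed LAGE3 (0.18) and MCL1 (0.23). Without probe sets that may cross-hybridise, medians were -0.91 for chemokines, -0.11 for NF-kB, -0.057 for the MYC network and 0.42 for cancer-testis genes, and BIRC5 (0.028), BUB3 (0.56), MAX (-0.24) and MCL1 (0.32) reversed. Quantile normalisation left 2 bright higher genes. At a brightness of 200 there were 25 and 53 bright 2-fold higher and lower genes and 192 and 221 at 1.5-fold; at 1000 these were 0, 16, 39 and 65. Fewer or more genes enter under these limits by construction; other causes were not tested. No paired analysis was possible because each group has 1 array.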
